A study of Mus musculus with 8 samples.

Results

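The genes described here were 8 of the neurotrophin and GDNF systems: the ligands Bdnf, Ntf3 and Gdnf, the Trk receptors Ntrk2 and Ntrk3, the shared neurotrophin receptor Ngfr, and the GDNF receptor subunits Gfra1 and Ret. They were taken by symbol from the 22873 genes of the deposited tables, and all 8 were present. The list was drawn up with earlier results of these data in view, above all the level of Ntrk3 in stroma 1 of dilated irises, so everything from the comparison of dilated with control stroma 1 is given below as a description and carries no test. Of the 8 genes, 6 passed the filter on low counts in at least 1 cell type, while Ngfr and Ret passed it in none.

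Nuclei from irises of 6- to 8-week-old wild type albino female mice were profiled by single nucleus RNA-seq, in 8 libraries that each came from their own pool of 5 or 6 irises. The 3 control libraries came from untreated mice. In the 3 constricted libraries the pupil had been closed with hourly drops of 5% pilocarpine, a muscarinic agonist, over 6.5 h in the light, and in the 2 dilated libraries it had been opened with hourly drops of 5% phenylephrine, an alpha-adrenergic agonist, together with 1% cyclopentolate, a muscarinic antagonist, over 6.5 h in the dark. Drug, lighting, pupil size and handling changed together and cannot be told apart. The 10 cell types were those assigned by the authors: dilator muscle, sphincter 1, sphincter 2, iris pigment epithelium (iris PE), ciliary body epithelium (CBE), ciliary body (CB), stroma 1, stroma 2, endothelial cells and leukocytes.

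Neurotrophins and GDNF are secreted proteins that target tissues supply to the nerves that reach them. Neurotrophin-3, made by Ntf3, acts mainly through the receptor tyrosine kinase TrkC, the product of Ntrk3; BDNF acts through TrkB, the product of Ntrk2; and the p75 receptor, made by Ngfr, binds all neurotrophins. GDNF binds the membrane-anchored GFRα1, and the pair then activates the receptor tyrosine kinase RET. The iris receives sensory fibres from the trigeminal ganglion, sympathetic fibres to the dilator and parasympathetic fibres to the sphincter. The cell bodies of all these fibres lie outside the iris, so nuclei prepared from it report on the tissue the nerves supply and not on the neurons.

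The promoters of Ntf3 and Gdnf are shown because these are the ligand genes whose levels in dilated irises lay farthest from control in the cell type where each was highest. Each window runs from 250 bases before to 50 bases after a RefSeq start site (GRCm38.p6, the mm10 assembly), is written 5′ to 3′ along the gene, and has motif matches in capitals. 14 windows were at hand for 6 of the 8 genes, with none for Ntrk3 or Ret.
Ntf3 start 1, chr6:126166695-126166994, minus strand: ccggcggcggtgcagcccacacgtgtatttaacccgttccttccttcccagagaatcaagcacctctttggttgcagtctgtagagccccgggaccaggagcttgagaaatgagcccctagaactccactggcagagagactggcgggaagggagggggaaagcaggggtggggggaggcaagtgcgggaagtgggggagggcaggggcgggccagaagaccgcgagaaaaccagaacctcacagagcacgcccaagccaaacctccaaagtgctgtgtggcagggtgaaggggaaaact
Ntf3 start 2, chr6:126164911-126165210, minus strand: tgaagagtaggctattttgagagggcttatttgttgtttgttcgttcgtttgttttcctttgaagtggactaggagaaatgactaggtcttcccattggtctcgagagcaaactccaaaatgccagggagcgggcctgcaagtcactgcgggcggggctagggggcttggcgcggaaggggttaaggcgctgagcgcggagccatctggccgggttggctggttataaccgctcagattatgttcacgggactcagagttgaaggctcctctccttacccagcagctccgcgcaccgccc
Gdnf start 1, chr15:7809798-7810097, plus strand: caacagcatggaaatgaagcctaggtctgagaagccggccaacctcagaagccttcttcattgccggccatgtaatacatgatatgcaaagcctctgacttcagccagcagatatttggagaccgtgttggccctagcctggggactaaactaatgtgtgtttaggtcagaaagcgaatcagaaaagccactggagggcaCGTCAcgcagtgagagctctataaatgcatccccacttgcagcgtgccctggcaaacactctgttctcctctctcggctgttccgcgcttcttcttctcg
Gdnf start 2, chr15:7813477-7813776, plus strand: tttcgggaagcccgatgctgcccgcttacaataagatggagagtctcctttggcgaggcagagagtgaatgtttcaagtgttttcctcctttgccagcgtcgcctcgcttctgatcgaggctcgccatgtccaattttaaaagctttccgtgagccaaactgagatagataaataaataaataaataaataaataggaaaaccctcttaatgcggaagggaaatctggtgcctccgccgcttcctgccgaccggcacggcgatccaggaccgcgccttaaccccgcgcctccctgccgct
The motifs searched on both strands were the cAMP response element TGACGTCA, its half-site TGACG (which each full element contains), the AP-1 site TGANTCA and the EGR site GCGTGGGCG. The capitals in the first Gdnf window mark a half-site on the opposite strand, the only match in these 4 windows. Over the 14 windows, 2 held the half-site (Gdnf start 1 and a Bdnf window), 1 held the AP-1 site (another Bdnf window) and 0 held the full element or the EGR site. Of all 32851 promoter windows in the table, 20.8% held the half-site, 7.81% the AP-1 site, 1.79% the full element and 0.612% the EGR site. The 3′ libraries do not show which start site was used.

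The series held 34357 nuclei and 109565284 UMIs (unique molecular identifiers, which count captured transcripts), between 1274 and 7321 nuclei and between 5189437 and 25136427 UMIs a library. Library numbers in the labels run in 3 series (2 to 4, 13, and 15 to 18), a grouping made here of consecutive numbers; what a series stands for was not given in the sources used here. Libraries of 1 series deviated together: their deviations from the group means correlated at 0.105 to 0.453 in all 24 pairs over dilator muscle, stroma 1 and stroma 2, against at most 0.0869 in the 39 other pairs. Deviations within a group sum to 0, so the 2 dilated libraries mirror each other and the pairs are not independent. In dilator muscle, for example, control replicate 1 had 0.23 with dilated replicate 1 and -0.23 with dilated replicate 2. Levels are given as UMIs per 1000000 UMIs of the same cell type and library (CPM). Because intronic reads were counted, long genes collected more UMIs, and levels are compared between cell types and conditions for 1 gene but not between genes. Control replicate 1 and dilated replicate 1 shared 63 cell barcodes, 4.26% of the nuclei of the former, and 59 of these carried the same cell type in both; no result below changed its call when nuclei with a repeated barcode were left out, except that of Sorcs3 given with it. Of 30 marker genes checked against the assigned cell types, 28 were highest in controls in a type whose list held them, the others being Otx2 and Pax6. Myh11, held by the dilator and the sphincter list, was highest in sphincter 1. Of 12 neuronal marker genes, 9 were in the tables and summed to between 9.24 and 21.5 CPM in control stroma 1 and between 27.1 and 55.0 CPM in control sphincter 2.

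**Figure D1:**
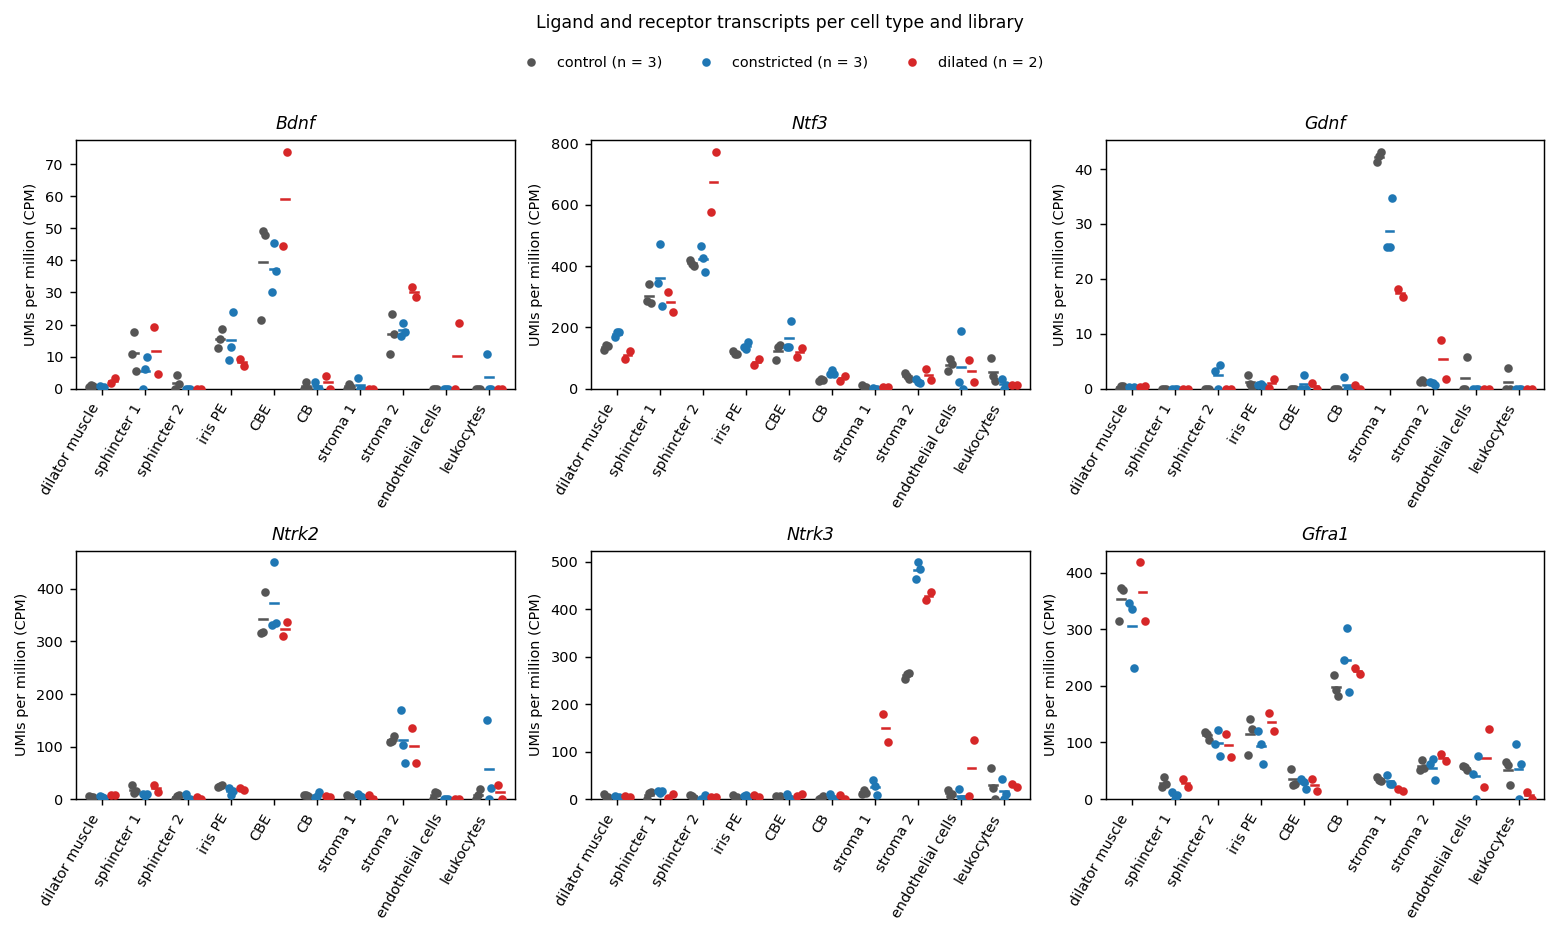
Level of the 6 genes that passed the filter in every cell type. Each point is 1 library in UMIs per 1000000 (y axis, linear from 0), grouped by cell type (x axis) and coloured by condition, and short bars are group means. Ntf3 is highest in the sphincter, Gdnf in stroma 1, Ntrk3 in stroma 2, Bdnf and Ntrk2 in CBE, and Gfra1 in dilator muscle. Endothelial cells and leukocytes have between 12 and 106 nuclei a library, and their points scatter accordingly.

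Ntf3, the gene of neurotrophin-3 (chr6:126101412-126166910, minus strand), was transcribed in both irideal muscles and highest in sphincter 2. In controls its level was 410 ± 10.4 CPM in sphincter 2 (SD, n = 3) and 303 ± 34.7 CPM in sphincter 1, with no overlap between the libraries of the 2 types. Dilator muscle (136 ± 7.59 CPM) came next, below every sphincter 1 library, and CBE (123 ± 27.2 CPM) and iris PE (116 ± 5.60 CPM) followed. CBE overlapped both dilator muscle and iris PE, while iris PE lay below every dilator muscle library. Stroma 1 was lowest at 7.99 ± 3.96 CPM.

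In dilated irises Ntf3 rose in sphincter 2 and passed the test in none of the other cell types where it was tested. The 3 control libraries had 421, 406 and 402 CPM in sphincter 2, the 3 constricted libraries 464, 426 and 380 CPM, and the 2 dilated libraries 578 and 773 CPM. Both dilated libraries lay above all 6 others, and the constricted libraries overlapped the controls. The fitted log2 fold change against control was 0.82 ± 0.21 (SE; edgeR quasi-likelihood adjusted p = 0.0250), in a cell type with between 26 and 190 nuclei a library. The call was lost without dilated replicate 2 (log2 fold change 0.52, adjusted p = 0.509), without control replicate 2 (0.82, adjusted p = 0.134) and without control replicate 3 (0.79, adjusted p = 0.168). Summed over the 4 dilator marker genes, sphincter 2 had between 2987 and 3606 CPM in control, 3883 and 4612 CPM in constricted and 3710 and 3926 CPM in dilated libraries. Most of this sum was Myh11 (2801 ± 344 CPM in control), which both muscles share, and its part in the Ntf3 result was not tested.

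Other cell types showed lower or overlapping Ntf3 levels in the same dilated libraries. In dilator muscle, controls had 127, 141 and 139 CPM and dilated libraries 98.0 and 121 CPM, a fitted log2 fold change of -0.12 ± 0.17 (edgeR adjusted p = 0.698). In dilated dilator muscle the scaling in the fit put the median gene 0.19 higher on the log2 scale than the ratio of CPM did, so fitted values there are less negative than the levels, and in every other cell type the shift was under 0.1. In iris PE, controls had 123, 113 and 113 CPM and dilated libraries 77.8 and 97.9 CPM (log2 fold change -0.36 ± 0.16, adjusted p = 0.539). The dilated libraries were below all controls in both cell types, without passing the test. In a joint edgeR fit with a term for each library, the dilation effect in sphincter 2 exceeded that in dilator muscle by 0.98 ± 0.17 on the log2 scale (adjusted p = 4.49e-06), that in sphincter 1 by 0.90 ± 0.21 (adjusted p = 0.00155) and that in iris PE by 1.17 ± 0.18 (adjusted p = 7.61e-07). These were 3 of 8 pairs of cell types compared for Ntf3 and Ntrk3; the differences from CBE (0.86 ± 0.25, adjusted p = 0.102), CB (0.64 ± 0.39, adjusted p = 0.704) and stroma 2 (0.45 ± 0.29, adjusted p = 0.659) did not pass. Without the term for each library the 3 differences kept their size (0.97, 0.90 and 1.20) and their edgeR adjusted p became 0.171, 0.123 and 0.0646. Sphincter 2, and stroma 2 for Ntrk3, entered the joint fits because the gene had passed there in these same libraries. The adjusted p of the joint fits do not allow for that choice.

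Constriction gave a different set of Ntf3 values. In dilator muscle the constricted libraries had 167, 186 and 186 CPM, all above the controls (log2 fold change 0.41 ± 0.15, edgeR adjusted p = 1.00). In iris PE they had 134, 130 and 153 CPM, again above every control (0.28 ± 0.14, adjusted p = 0.999). In CB they had 47.6, 59.9 and 49.0 CPM against 26, 31.7 and 27 CPM in controls, from 7 to 28 UMIs a library (0.88 ± 0.35, adjusted p = 0.910). None of these passed the adjustment over all genes.

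Bdnf, the gene of brain-derived neurotrophic factor (chr2:109674700-109727007, plus strand), gave 1083 UMIs in all and was highest in CBE, with stroma 2 and iris PE next. Control libraries had 21.4, 49.2 and 47.8 CPM in CBE, 10.9, 23.1 and 17 CPM in stroma 2 and 12.5, 15.5 and 18.7 CPM in iris PE, so each neighbour in this order overlapped the next. In stroma 2 the dilated libraries had 31.8 and 28.6 CPM, above all controls and all constricted libraries, which had 16.3, 20.5 and 17.7 CPM. In iris PE the dilated libraries had 9.36 and 7.19 CPM, below all controls. Neither difference passed the test, with a log2 fold change of 0.77 ± 0.27 in stroma 2 (edgeR adjusted p = 0.254) and of -0.91 ± 0.37 in iris PE (adjusted p = 0.480), and the difference between the 2 cell types was not tested.

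Gdnf, the gene of glial cell line-derived neurotrophic factor (chr15:7810846-7837575, plus strand), had most of its control UMIs in stroma 1, the cell type marked by Sox10 and Pax3. Control stroma 1 had 41.3, 42.5 and 43.1 CPM, from 23, 58 and 70 UMIs. All other control cell types had 0 to 10 UMIs each, and the 0 UMIs in control sphincter 2 and sphincter 1 allow up to 2.37 and 1.56 CPM (3 counts over the group, counting error only). A UMI of Gdnf was found in 10.2% of 1292 control stroma 1 nuclei and in 0.138% of 4357 control dilator muscle nuclei, at median depths of 2691 and 3410 UMIs. The list of 11 Schwann cell genes, led there by Sox10 and Cdh19, summed to between 2171 and 2224 CPM in control stroma 1.

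Gdnf in stroma 1 was ordered by condition, with control highest, constricted between and dilated lowest. Constricted libraries had 25.7, 25.8 and 34.7 CPM and dilated libraries 18.1 and 16.7 CPM, the latter from 13 and 10 UMIs, and no library of 1 condition overlapped another. The fitted log2 fold change was -0.55 ± 0.26 for constricted against control (edgeR adjusted p = 0.976). For dilated against control it was -1.27 ± 0.31, given without a test because this is the comparison the list was drawn from. The share of stroma 1 nuclei with a UMI was 4.33% in dilated against 10.2% in control libraries, and after thinning every nucleus to 1000 UMIs 1.67% against 4.45%. In stroma 2, dilated replicate 1 had 33 UMIs in 19 of 1340 nuclei, up to 5 in 1 nucleus, and dilated replicate 2 had 3 UMIs in 3 of 714 nuclei.

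**Figure D2:**
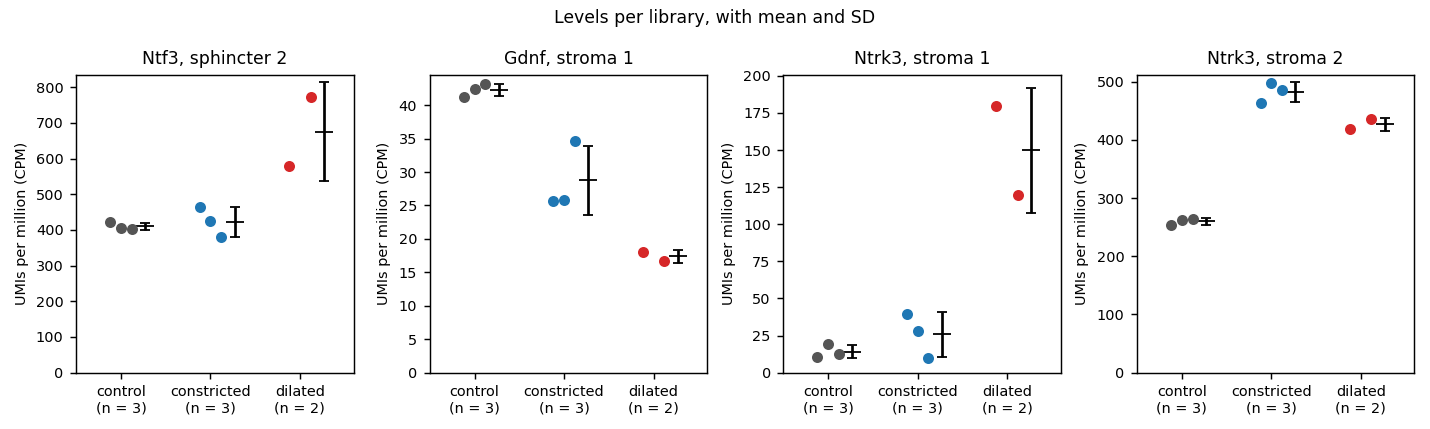
Level per library of Ntf3 in sphincter 2, Gdnf in stroma 1 and Ntrk3 in stroma 1 and stroma 2. Points are libraries in UMIs per 1000000 (y axis, from 0), and the black bar beside them is the mean with its SD. The 2 dilated libraries lie above all controls for Ntf3 and Ntrk3 and below them for Gdnf, and Ntrk3 in stroma 2 is also above control in all 3 constricted libraries.

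Ntrk3, the gene of TrkC (chr7:78175959-78738012, minus strand), was highest in stroma 2, the cell type whose markers include Tfap2b and Glis1. Its control level there was 260 ± 5.81 CPM, and the next types, leukocytes (29.6 ± 33.6 CPM, from 8 UMIs) and stroma 1 (14 ± 4.40 CPM), did not overlap it. Below these, the neighbours in order overlapped one another down to CB at 2.91 ± 3.47 CPM. Ntrk3 UMIs were found in 34.2% of 3040 control stroma 2 nuclei.

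In stroma 2 Ntrk3 was higher under both treatments. Controls had 254, 262 and 265 CPM, constricted libraries 464, 498 and 485 CPM, and dilated libraries 419 and 435 CPM. All 5 treated libraries lay above all 3 controls by more than the spread within any group. Dilated against control, the log2 fold change was 0.76 ± 0.15 (edgeR adjusted p = 0.0247). Constricted against control it was 0.89 ± 0.14, and its edgeR adjusted p over 12788 genes was 0.0575, just outside the threshold. DESeq2 gave an adjusted p of 6.07e-05 for the constricted comparison, the fit without a filter 0.000458, the fit with a replicate block 0.0265 and that with a library series block 0.0159. The other 11 of 15 alternatives made no call, with adjusted p from 0.0530 up to 0.615 (without control replicate 2). Both comparisons share the 3 control libraries, so they are not independent of each other.

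The Ntrk3 call in dilated stroma 2 was lost when any 1 control or dilated library was left out, with a log2 fold change between 0.68 and 0.84 throughout. Adjusted p was 0.0621, 0.137 and 0.153 without control replicate 1, 2 and 3, and 0.0699 and 0.156 without dilated replicate 1 and 2. Endothelial marker genes were also higher in dilated stroma 2: the 6 genes summed to between 196 and 259 CPM in control, 153 and 326 CPM in constricted and 635 and 812 CPM in dilated libraries. Most of this was Cldn5 (99.1 to 132 CPM in control, 373 and 631 CPM in dilated libraries). Flt1 had between 43.6 and 104 CPM in control and 172 and 126 CPM in dilated libraries, and Erg between 4.25 and 7.51 CPM and 58.5 and 23.4 CPM. Pecam1 overlapped between the conditions, and Cdh5 and Kdr had at most 1.62 and 3.23 CPM in any library. The part of these markers in the Ntrk3 call was not tested beyond the levels that follow. A UMI of 1 of the 6 genes was found in 29.7% to 38.6% of control and in 62.0% and 58.3% of dilated stroma 2 nuclei. Without those nuclei Ntrk3 was at 279, 287 and 294 CPM in control, 503, 569 and 491 CPM in constricted, and 359 and 375 CPM in dilated libraries. The dilated libraries were still above all controls, at a log2 ratio of 0.36 in place of 0.71, and the constricted libraries were above both. This selection was made after seeing the data.

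In stroma 1 Ntrk3 was low in controls and high in both dilated libraries, the value for which the list was drawn up. Controls had 10.8, 19.0 and 12.3 CPM, constricted libraries 39.5, 28.4 and 9.63 CPM, and dilated libraries 179 and 120 CPM. The log2 ratio of the mean levels, dilated against control, was 3.42, and the fitted log2 fold change was 3.35 ± 0.32. The constricted libraries spread from below the lowest control to above the highest (log2 fold change 0.83 ± 0.40, edgeR adjusted p = 0.976). The level in dilated stroma 1 was below that in control stroma 2.

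The dilated stroma 1 UMIs came from many nuclei. A Ntrk3 UMI was found in 3.33%, 3.85% and 3.04% of control stroma 1 nuclei, in 7.86%, 8.08% and 1.90% of constricted and in 27.4% and 20.6% of dilated ones. Of the 117 dilated stroma 1 nuclei with a UMI, 72 had 1, 23 had 2 and 22 had 3 or more. In dilator muscle, where the gene was near 0, the share was 1.65% in control and 1.88% in dilated nuclei, at median depths of 3410 and 3758 UMIs against 2691 and 2619 UMIs in stroma 1. After thinning to 1000 UMIs a nucleus, the shares in stroma 1 were 0 to 1.76% in control libraries and 16.5% and 9.09% in dilated ones, with 12 control and 5 dilated nuclei too shallow to keep.

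Markers of other cell types in stroma 1 were set beside these values. The 3 stroma 2 markers summed to between 40.7 and 49.8 CPM in control and between 38.3 and 61.2 CPM in dilated stroma 1, against 4384 to 5207 CPM in control stroma 2. Nuclei with a UMI of these markers were 10.0%, 12.5% and 9.97% of control and 11.5% and 6.44% of dilated stroma 1, and without them the dilated libraries had 175 and 112 CPM of Ntrk3, a log2 ratio to control of 3.37. The 6 endothelial markers summed to between 13.2 and 24.0 CPM in control and between 30.0 and 61.2 CPM in dilated stroma 1, and the 6 pericyte markers to between 15.4 and 28.7 CPM and between 31.7 and 59.8 CPM; their part in the Ntrk3 values was not tested. The melanocyte list of 9 genes summed to between 32006.5 and 34150 CPM in control and between 37577 and 40395 CPM in dilated stroma 1.

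Ntrk2, the gene of TrkB (chr13:58806569-59133970, plus strand), had 2 clear sites, CBE and stroma 2. Controls had 317, 318 and 395 CPM in CBE, 109, 111 and 119 CPM in stroma 2 and 23.4, 25.9 and 25.9 CPM in iris PE, with no overlap between these types, and every other type was lower or overlapped iris PE. In CBE the treated libraries overlapped the controls, with 332, 450 and 336 CPM in constricted and 311 and 338 CPM in dilated libraries. Neither comparison passed the test there (log2 fold change 0.16 ± 0.21 and -0.05 ± 0.22). Stroma 2 levels ranged from 68.9 to 169 CPM in constricted libraries and were 136 and 67.8 CPM in dilated ones, a spread in each treated group that took in every control. In iris PE all treated libraries were below all controls, at 20.4, 8.20 and 15.7 CPM when constricted and 20.4 and 16.4 CPM when dilated, without passing the test (log2 fold change -0.69 ± 0.25, edgeR adjusted p = 0.999, and -0.41 ± 0.26, adjusted p = 0.770). In dilator muscle the dilated libraries had 7.5 and 7.41 CPM against 6.23, 3.66 and 4.27 CPM in controls (log2 fold change 0.93 ± 0.37, adjusted p = 0.121). The 14 leukocyte UMIs of constricted replicate 1 came from 2 nuclei, 11 of them from 1.

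Stroma 2 held transcripts of both Trk receptors, and 15 to 140 nuclei a library carried UMIs of both. In control libraries Ntrk3 UMIs were found in 33.3%, 38.5% and 29.9% of the nuclei with an Ntrk2 UMI and in 38.4%, 33.6% and 34.2% of those without. In constricted libraries the shares were 49.4%, 60.8% and 46.1% against 50.3%, 62.9% and 54.9%, and in dilated libraries 44.9% and 52.2% against 46.1% and 50%. The share was lower among the nuclei with an Ntrk2 UMI in 6 of 8 libraries, and in all 8 those nuclei were the deeper ones, for example 2720 against 2310.5 UMIs at the median in control replicate 2. No test was made of this difference.

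Ngfr (chr11:95568818-95587735, minus strand), the gene of p75, gave 53 UMIs in 51 nuclei over all 8 libraries. Of these, 24 were in dilator muscle, where dilated replicate 1 and 2 had 6 and 11 UMIs and the 3 control libraries 0, 2 and 1. Pooled over libraries this was 1.12 CPM in dilated dilator muscle (95% exact Poisson interval 0.655 to 1.80, counting error only) and 0.200 CPM in control (0.0412 to 0.583). Stroma 2 had 0 Ngfr UMIs in every library, which allows up to 0.397 CPM in controls.

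Gfra1, the GDNF-binding subunit (chr19:58235604-58455909, minus strand), was widespread and highest in dilator muscle. Controls had 315, 373 and 370.0 CPM there, 220, 192 and 182 CPM in CB, 78.6, 141 and 124 CPM in iris PE and 119, 114 and 104 CPM in sphincter 2. The sphincter types differed, since sphincter 1 had 21.5, 38.3 and 27.1 CPM, below every sphincter 2 library. In stroma 1, where Gdnf was transcribed, controls had 39.5, 32.9 and 32.0 CPM, constricted libraries 42.9, 25.8 and 27 CPM and dilated libraries 18.1 and 15 CPM, from 13 and 9 UMIs. The dilated libraries were below all others, a log2 fold change of -1.02 ± 0.34 that is given as a description. In sphincter 1 the constricted libraries had 4, 0 and 2 UMIs against 4, 24 and 30 in controls (log2 fold change -1.92 ± 0.62, edgeR adjusted p = 0.473).

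Ret, the signalling subunit of the GDNF receptor (chr6:118151745-118197718, minus strand), was near the floor throughout the iris. It gave 36 UMIs in 28 nuclei over all libraries. Of these UMIs, 13 were in 8 of 1340 stroma 2 nuclei of dilated replicate 1, while dilated replicate 2 had 2 UMIs in 1 of 714 nuclei. Control stroma 1, the site of Gdnf, had 0 Ret UMIs, which allows up to 0.846 CPM, and control dilator muscle, with the highest Gfra1 level, had 1 UMI or 0.0665 CPM (95% exact Poisson interval 0.00168 to 0.371).

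Across the 80 pairs of gene and cell type, 27 passed the filter, and 24 of these lay outside stroma 1. Dilated against control, 2 of the 24 passed an adjusted p of 0.05 (edgeR, over all genes of the cell type) and an absolute log2 fold change of 0.6, where 3.59% of all tests outside stroma 1 did (3.34% with stroma 1). They were Ntf3 in sphincter 2 and Ntrk3 in stroma 2, and 6 had an unadjusted p below 0.05. The share of all tests with an unadjusted p below 0.05 is not given, so such counts are not read as an excess. The share of all genes called was 2.87% in sphincter 2, 1.73% in stroma 2, 1.17% in stroma 1, 13.3% in dilator muscle and 0.595% in iris PE. Groups of libraries did not overlap in 5 of the 24 pairs that were higher and 4 that were lower in dilated irises, against 30.6% of all tests outside stroma 1 (30.7% with it), and the median log2 fold change was 0.02 against 0.0013 over those tests.

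Constricted against control, 0 of 27 pairs passed in the main edgeR fit, where 0.0118% of all tests did (0.0131% outside stroma 1; 0.0897% in sphincter 2, 0.0156% in stroma 2, 0.00708% in iris PE and 0.0065% in dilator muscle). An unadjusted p below 0.05 was found for 7. DESeq2 called 1, Ntrk3 in stroma 2. That pair was also called by edgeR without the filter and with a block by replicate number or library series. Libraries did not overlap in 4 pairs that were higher and 3 that were lower, against 10.5% of all tests, and the median log2 fold change was -0.04 against 0.0076. The count of 7 likewise has no share of all tests beside it. A pair that misses the threshold is not shown to be unchanged.

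**Figure D3:**
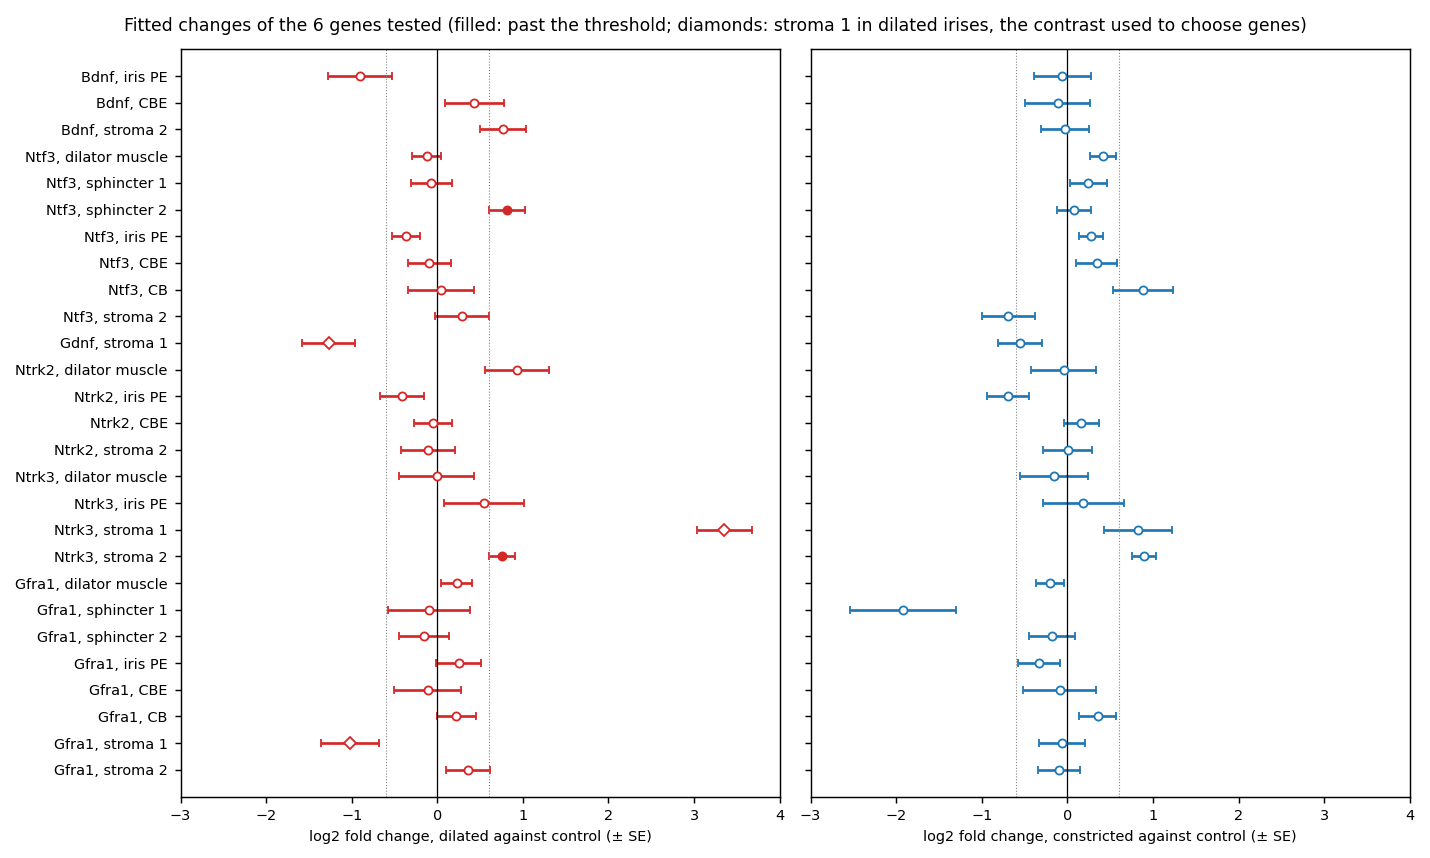
Fitted log2 fold change (x axis) with its SE for the 27 pairs of gene and cell type that passed the filter (y axis), dilated (left) and constricted (right) against control. Filled points passed an adjusted p of 0.05 and an absolute log2 fold change of 0.6 (dotted lines), and diamonds are the stroma 1 pairs of the dilated comparison, shown without a call. Ntf3 in sphincter 2 and Ntrk3 in stroma 2 are filled on the left, and no point is filled on the right.

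The other genes of the pathway were taken as a list of 39: 5 further ligands, 11 receptors and co-receptors, 19 intracellular partners and 4 genes that process proneurotrophins. Of these, 33 passed the filter in at least 1 cell type, which gave 200 pairs of gene and cell type in each comparison. In dilated irises 3 pairs rose and 8 fell past the threshold; in constricted irises 0 rose and 1 fell. Of all tests in the same fits, 1.87% were higher and 1.47% lower in the dilated comparison. In the constricted one 0.0094% were higher and 0.00235% lower. The median log2 fold change of the list was 0.0012 and 0.02. With a block by library series, 20 pairs passed in dilated and 2 in constricted irises. The share of all tests that passed under that block is not given, so those counts have no background.

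Among the further ligands, Nrtn, the gene of neurturin, reached 4.59 ± 3.34 CPM in CBE and Pspn, the gene of persephin, 2.11 ± 3.65 CPM in endothelial cells, from 6 and 1 UMIs.

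Receptors and co-receptors fell in 5 pairs and rose in 0. In dilator muscle, where 13.3% of all genes tested passed, Sort1, the gene of sortilin, a proneurotrophin co-receptor, fell from between 373 and 407 CPM to 188 and 149 CPM (log2 fold change -1.05 ± 0.15, adjusted p = 0.000589). Its relative Sorcs1, highest in iris PE at 1328 ± 222 CPM in controls, fell in dilator muscle from between 254 and 451 CPM to 146 and 99.2 CPM (-1.20 ± 0.21, adjusted p = 0.00258), and Lrig1, a negative regulator of receptor tyrosine kinases that is known to restrain Ret and Trk signalling, from between 185 and 210 CPM to 59.6 and 83.0 CPM (-1.28 ± 0.20, adjusted p = 0.00105). These 3 calls held under every alternative tried. Lrig1 also fell in sphincter 2 (-1.24 ± 0.26, adjusted p = 0.00618; 0.0930 without control replicate 3 and 0.0862 without dilated replicate 1), and Sorcs3 fell in stroma 2, its highest cell type, from between 677 and 758 CPM to 443 and 332 CPM (-0.85 ± 0.19, adjusted p = 0.0489). The Sorcs3 call lay at the threshold: it was lost without nuclei that had a repeated barcode (adjusted p = 0.0619), without constricted replicate 1 and 2 (0.0589 and 0.0538), without control replicate 1, 2 and 3 (0.0617, 0.202 and 0.243) and without dilated replicate 1 and 2 (0.0843 and 0.281). Ncam1, an alternative GDNF receptor, was highest in stroma 2 at 1199 ± 71.8 CPM and passed in no cell type.

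Of the processing genes, Plat, the gene of tissue plasminogen activator, rose most. In dilator muscle it went from 45.5, 39.3 and 44.3 CPM in controls, and 52.3, 51.4 and 53.8 CPM in constricted libraries, to 319 and 421 CPM in dilated ones (log2 fold change 3.31 ± 0.17, edgeR adjusted p = 4.58e-07). In iris PE it went from 68.5, 28.0 and 32.5 CPM to 142 and 122 CPM (1.79 ± 0.26, adjusted p = 0.00657; 0.0673 without control replicate 3). Furin, a protease that cleaves proneurotrophins, rose in dilator muscle (0.81 ± 0.17, adjusted p = 0.00717), a call lost without control replicate 3 (0.0578) or dilated replicate 1 (0.0580). Pcsk5, a related convertase, fell in dilator muscle (-1.08 ± 0.17, adjusted p = 0.00114) and in sphincter 2, where controls had 192, 308 and 393 CPM and dilated libraries 119 and 129 CPM (-1.28 ± 0.28, adjusted p = 0.00782; 0.137 without control replicate 3, 0.0752 and 0.0513 without dilated replicate 1 and 2). Pcsk5 was also the 1 gene of the list that passed in constricted irises, in sphincter 2, at 87.7, 130 and 169 CPM (-1.31 ± 0.26, adjusted p = 0.0214). That call was lost with DESeq2 (0.0608), without control replicate 2 and 3 (0.139 and 0.761) and without constricted replicate 1 and 2 (0.164 and 0.113).

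Of the intracellular partners, 0 of 110 pairs passed in either direction in both comparisons. An unadjusted p below 0.05 was found for 11 and 2 pairs, again without the share of all tests. Named by the rule for this group, without a comparison between genes, were Grb2 in leukocytes (303 ± 49.7 CPM), Gab1 in stroma 1 (284 ± 26.7 CPM) and Frs2 in sphincter 1 (216 ± 35.6 CPM), all adaptors that couple receptor tyrosine kinases to downstream signalling.

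**Figure D4:**
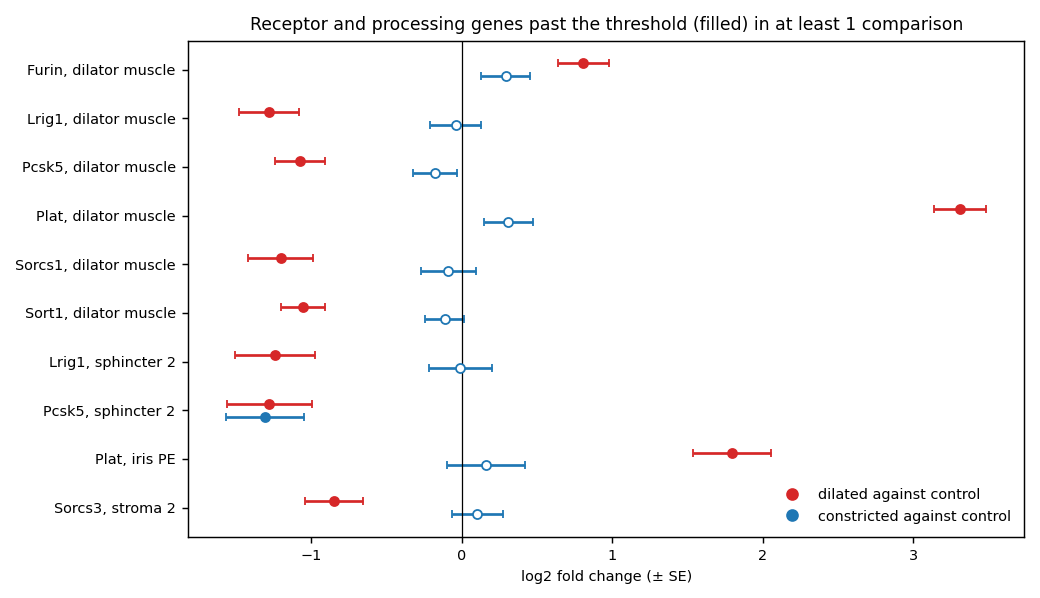
Log2 fold change with its SE (x axis) of the 10 pairs of receptor or processing gene and cell type (y axis) that passed the threshold in at least 1 comparison, dilated (red) and constricted (blue) against control. Filled points passed. Plat in dilator muscle stands farthest to the right at 3.31, the receptor genes lie to the left, and Pcsk5 in sphincter 2 is the only pair filled in both colours.

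As a description of pattern, the genes most alike were sought by Pearson's r of log2(CPM + 1) over the 30 means of cell type and condition, among 12848 genes that reached 20 CPM in at least 1 mean. The means share libraries and depth within a cell type, so no test was made. Ntf3 was most like Cap2 (r = 0.92), Znrf3 (0.90) and Arl4a (0.90). Ntrk3 was most like Lmx1b (0.91), Gpr137b (0.88) and Nid1 (0.88). Gdnf was most like Gm47771 (0.94), Scrg1 (0.91) and Gldnos (0.89), and Gfra1 like Gm13561, Haus4 and Got2 (each 0.81). Ntrk2 was most like Gm47423 (0.93), a gene annotated antisense within Ntrk2, and was also like Fbln7 (0.88), and Bdnf like Gm26700 (0.88), Plekhg6 (0.87) and again Gm47423 (0.86). Within the set, Bdnf and Ntrk2 had r = 0.78, while the ligand and receptor pairs Ntf3 with Ntrk3 and Gdnf with Gfra1 had r = -0.49 and -0.19.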

How the data were processed

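The authors aligned 10x Genomics 3′ reads to mm10 pre-mRNA (exons and introns) with Cell Ranger 3.1.0 and filtered nuclei with Seurat. They deposited raw UMI counts per gene and nucleus, with their cell types and a percent of mitochondrial UMIs per nucleus. Here the deposited counts were summed by library and cell type. Dilated and constricted libraries were each compared with control by edgeR 4.0.16 (R 4.3.3; quasi-likelihood test, TMM scaling, all 8 libraries in the fit of a cell type), with Benjamini-Hochberg adjustment over all genes of the cell type that passed edgeR's filter on low counts. A call needed an adjusted p of 0.05 and an absolute log2 fold change of 0.6. CPM are UMIs per 1000000 of the cell type and library and are not TMM-scaled. The joint fits put summed counts of a pair of cell types in 1 model. The authors tested single nuclei; libraries are the replicates here, so p-values measure the spread between pools of irises, and which library was processed in which batch was not given in the sources used here. Named genes were the 8 genes and the other pathway genes past the threshold. For the rest of the pathway list, genes with the highest control levels in each role are given. Some genes that this rule and the lists hold are not reported here, and counts include them. The members and all lists were chosen with earlier results of these data known. Doublets were called here in each library with Scrublet. The nuclei so called (0.993%) were kept, and left out as an alternative. Their share differed between cell types. In control replicate 2 they were 22 of 184 sphincter 1 nuclei and 14 of 106 leukocytes, against 10 of 2080 dilator muscle nuclei. Other alternatives were DESeq2 1.42.0, its size factors, no filter, blocks by replicate number or library series, thinning to 1000 UMIs and leaving out each library. Intervals and floors cover counting error only. The scripts were tested on simulated data.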

Additional observations from a re-analysis of the deposited data

Results flagged for a closer look

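Effects of dilation that differed between cell types were singled out for a closer look. For Ntf3 the difference itself was tested, in pairs with sphincter 2 because Ntf3 had passed there in the same libraries. Sphincter 2 exceeded dilator muscle by 0.98, sphincter 1 by 0.90 and iris PE by 1.17 on the log2 scale in the joint edgeR fit with a term for each library. In their own fits the log2 fold changes of Ntf3 were 0.82 in sphincter 2, -0.12 in dilator muscle and -0.36 in iris PE, with both dilated libraries above all controls in the first and below all controls in the other two.

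In 3 further genes both dilated libraries lay above all controls in 1 cell type and below all controls in another, and the difference between the cell types was not tested. Over all genes and the 10 cell types, 30.7% of the dilated tests had groups of libraries that did not overlap. The share of all genes with such opposite pairs is not given, so the count of 3 is not read as an excess. Bdnf had a log2 fold change of 0.77 in stroma 2 and -0.91 in iris PE. Ntrk2 had 0.93 in dilator muscle and -0.41 in iris PE. Gfra1 had 0.22 in CB, where the lower dilated library and the highest control differed by less than 1 CPM, and -1.02 in stroma 1. That stroma 1 value is from the comparison the list was drawn from and is given as a description. Groups of 2 or 3 libraries were not searched for outlying libraries.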

How the results depend on the processing

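Of 240 alternatives for the single genes, 196 gave the same call, 40 lost it, 4 gained it and 0 reversed. These counts include 15 alternatives for Gdnf in dilated stroma 1, of which 8 gave the same call. The list was drawn from that comparison, which carries no test, so those 15 are not read as support for a result. The 2 calls among the 8 genes outside stroma 1 in dilated irises ranged from 0 to 2 when 1 library was left out; counted with stroma 1, from which the genes were chosen and where no test is read, 3 ranged from 0 to 3, and the lone dilated library of such a fit was assumed to vary like the other groups. In constricted irises 1 was called in place of 0, with DESeq2, without the filter, and with a block by library series, the runs of consecutive library numbers in the titles. For the other pathway genes, the 11 calls of the dilated comparison became 20 with the library series block and ranged from 5 to 11 without 1 library; the 1 call of the constricted comparison became 2 without the filter and 2 with the library series block, and ranged from 0 to 2 without 1 library. Without a term for each library, 0 of the 8 differences between cell types passed. The log2 ratio of Ntrk3 in stroma 1 was 4.29 after thinning, with control libraries at 0, 19.5 and 5.10 CPM and dilated ones at 213 and 108 CPM. Few control UMIs remained after thinning, so 4.29 is not read as a larger effect. Without 1 library the log2 ratio ranged from 3.1 to 3.70. In each case the cause was not tested. Of 36 alternatives for control levels, 35 stayed within 1 SD, the exception being Ntf3 in sphincter 2 without doublets (427 CPM). With the replicate number as a block, 2 pairs were called in dilated and 1 in constricted irises (Ntrk3 in stroma 2, edgeR adjusted p = 0.0265), and 13 pathway pairs in dilated ones. The share of all tests that passed is given for the main fit only, so the counts under the alternatives have no background. Deviations of libraries with the same number correlated at -0.0331 to 0.446, above 0.1 in 15 of 21 pairs, against 9 of 42 other pairs. By library series, 24 of 24 pairs of the same series and 0 of 39 pairs of different series were above 0.1. These pairs are not independent. The main fits used neither grouping, and both were tried as blocks only. Depth limits Ngfr, Ret, endothelial cells and leukocytes most.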
